A study of Mus musculus with 6 samples.

Results

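A set of 9 long noncoding RNAs that are known from neurons, or that carry microRNAs, were followed in mouse RNA-seq libraries: Mir124a-1hg, 2610100L16Rik, Meg3, Rian, Mirg, Miat, Malat1, Neat1 and Snhg11. They were chosen by gene symbol, and each of the 9 symbols had a row among the 24346 rows of the files. By its labels, the series compared brains of mice at embryonic day 17.5. In 1 group the genes for miR-124a-1 and for miR-124a-2 were knocked out, and the other group were controls. The 3 libraries labelled DKO carry the genotype label miR-124a-1/2 DKO, and the 3 libraries labelled control carry the genotype label miR-124a-1+/-. By that label the control animals also lack 1 copy of miR-124a-1, and no library is labelled wild type. The strain, the part of each host gene that was deleted, and whether the 3 libraries of a group came from separate litters were not stated in any source at hand, so p-values measure only the spread between these libraries. The values are FPKM (fragments per kilobase, adjusted for the number mapped), as the authors deposited them. The file columns of the libraries labelled DKO are headed CKO, a name that the labels do not explain.

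MicroRNAs are cut from longer host transcripts, and the spliced host RNA can stay in the cell after the microRNA has been released. Mir124a-1hg, also called Rncr3 from its discovery in the retina, and Mir124-2hg, listed here as 2610100L16Rik, host miR-124a-1 and, in the same order, miR-124a-2. The mature product, miR-124, is among the most abundant microRNAs of neurons. Meg3, Rian and Mirg are noncoding RNAs of the imprinted Dlk1-Dio3 domain, made from the maternal chromosome, and they carry microRNAs (all 3) and small nucleolar RNAs (Rian). Malat1 is a nuclear RNA of splicing speckles, Neat1 is the scaffold of paraspeckles, and Miat, also called Gomafu or Rncr2, is a nuclear RNA of neurons that binds splicing factors. Snhg11 is a host of small nucleolar RNAs with high levels in neurons. Malat1 and the long form of Neat1 end without a normal poly(A) tail, so a library made from poly(A) RNA may catch them less fully than mRNA.

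The microRNAs within Meg3, Rian and Mirg are what these hosts are known to deliver, so their mature sequences are shown first, from RefSeq on GRCm38.p6. GENCODE annotates 23 microRNA genes on the same strand within the spans of the 9 genes, and 19 of these matched the sequence table, with 35 mature sequences. Capitals mark the seed, bases 2 to 8, which pairs with target transcripts. Each is 5′ to 3′ and lies on the plus strand of chromosome 12. miR-770-5p lies in Meg3, miR-370-3p in Rian and miR-134-5p in Mirg:
mmu-miR-770-5p: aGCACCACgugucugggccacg
mmu-miR-370-3p: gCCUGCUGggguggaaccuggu
mmu-miR-134-5p: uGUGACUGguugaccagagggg

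The 35 mature sequences held 34 different seeds, and the 1 seed held in common was that of miR-453 (chr12:109735669-109735692) and miR-496a-5p (chr12:109739132-109739152), both in Mirg. The seeds of miR-409-5p and miR-410-5p differed from it at 1 position each. These 4 lines show that group:
mmu-miR-453: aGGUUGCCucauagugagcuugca
mmu-miR-496a-5p: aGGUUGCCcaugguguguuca
mmu-miR-409-5p: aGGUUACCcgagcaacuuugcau
mmu-miR-410-5p: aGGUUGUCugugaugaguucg

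A further group in Mirg is chained by single differences: the seed of miR-154-3p differed at 1 position from that of miR-485-3p and at 1 position from that of miR-369-3p. In all, 8 of the 595 pairs of mature sequences differed at 1 seed position, 7 of them within Mirg and 1 between Rian and Mirg.
mmu-miR-154-3p: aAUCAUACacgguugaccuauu
mmu-miR-485-3p: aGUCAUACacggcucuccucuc
mmu-miR-369-3p: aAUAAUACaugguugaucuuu

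Meg3, Rian and Mirg lie in a row on the same strand, and transcription of the row is thought to begin at Meg3, so the promoter of Meg3 is shown (RefSeq, GRCm38.p6, plus strand, chr12:109540746-109541045, 250 bases before to 50 bases after the annotated start). Capitals mark CCAAT, the cyclic AMP response element word TGACGTCA at position -57 from the start, and the overlapping words TTTATA and TATAAA, the second at position -25.
Meg3: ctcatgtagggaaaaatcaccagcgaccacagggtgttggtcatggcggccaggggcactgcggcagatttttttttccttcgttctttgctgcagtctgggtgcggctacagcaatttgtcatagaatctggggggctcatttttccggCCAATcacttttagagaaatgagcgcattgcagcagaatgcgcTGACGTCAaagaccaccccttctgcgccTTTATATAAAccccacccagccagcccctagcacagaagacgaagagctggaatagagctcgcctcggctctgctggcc

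TGACGTCA, which reads the same on both strands, was found in 1 of the 7 promoter windows that the table holds for 6 of the 9 genes, and in 1.79% of all 32851 windows. TATAAA or its reverse complement TTTATA was found in the same 1 window and in 13.6% of all windows. CCAAT or its reverse complement ATTGG was found in 2 of the 7, the other being listed for Mirg, and in 37.4% of all windows. That window (chr12:109734731-109735030) lies inside the GENCODE span of Mirg, which starts at 109729764. It holds the sequences of miR-668-5p, miR-668-3p and miR-485-3p, so it is not upstream of the GENCODE start. The second window of Meg3 (chr12:109545148-109545447) and the window of Miat (chr5:112228899-112229198) also lie inside the GENCODE spans of their genes. Such matches describe the letters only.

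The labels' tissue and age were not borne out by the marker genes, in either group. All 12 photoreceptor markers were detected, and the median of their mean levels over the 6 libraries was 633 FPKM, beside 0.880 FPKM for 10 forebrain markers. Of the 10 forebrain markers, 5 averaged 1 FPKM or more. The highest were Cux2 at 10.1 to 11.1, Fezf2 at 6.66 to 9.08 and Neurod2 at 4.94 to 6.29 FPKM over the 6 libraries. Among the lower ones, Neurod6 lay at 0.493 to 1.08 FPKM, and Emx1 was listed at 0 in all libraries. Mki67, a gene of dividing cells, lay at 0.0765 to 0.262 FPKM. Of the 10 markers of dividing progenitors, 3 averaged 1 FPKM or more: Eomes (3.72 to 5.91), Nes (2.67 to 3.45) and Hes5 (2.36 to 3.73 FPKM). The groups are therefore named by their labels alone. The files used here carry no read totals. Steps between low values put the libraries within 0.956 to 1.24 times the depth of DKO replicate 1. Rows of short RNAs took 1.82% to 6.38% of the FPKM sum, the most in control replicate 3.

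The 9 RNAs spanned a wide range of levels, with Mir124a-1hg the highest and Mirg the lowest. On the FPKM scale, which is per length, the mean level over the 6 libraries was 486 FPKM for Mir124a-1hg, 394 for Malat1, 359 for Meg3, 200.2 for Snhg11, 95.3 for 2610100L16Rik, 76.7 for Rian, 28.3 for Miat, 7.72 for Neat1 and 5.56 for Mirg. The order was the same in all 6 libraries. Neighbours in this order nonetheless came close in single libraries: Malat1 was 1.01 to 1.20 times Meg3, 2610100L16Rik was 1.01 to 1.43 times Rian, Neat1 was 1.04 to 1.64 times Mirg, and Mir124a-1hg was 1.08 to 1.32 times Malat1. The ranges over libraries overlapped for those 4 pairs and did not overlap for the 4 other neighbouring pairs. Levels of different genes also depend on the transcript length that the authors' annotation gave. GENCODE transcripts run from 421 to 14548 bases for Meg3, from 284 to 9163 bases for Miat and from 711 to 20771 bases for Neat1.

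**Figure D1:**
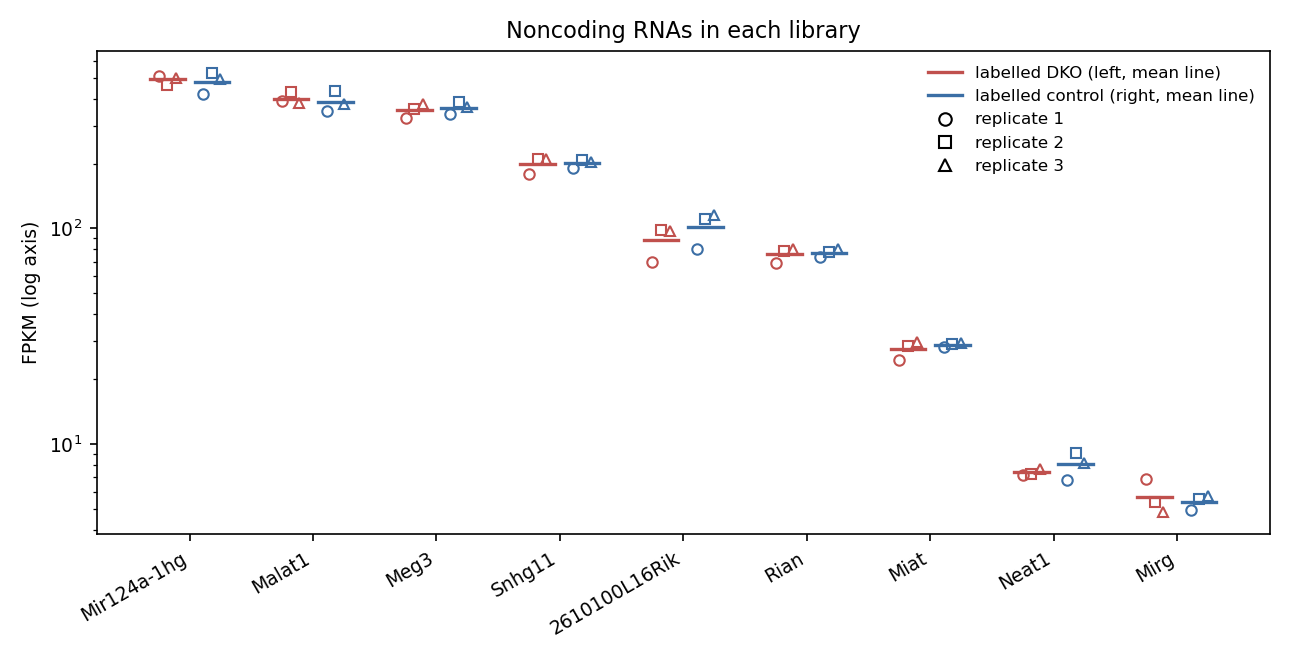
FPKM of each noncoding RNA in each library on a log axis, with libraries labelled DKO left and libraries labelled control right; symbols mark the replicate and lines the group means. The groups overlap for every gene, and Mir124a-1hg sits highest at 420.1 to 528 FPKM.

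Of all rows, 13215 averaged 1 FPKM or more over the 6 libraries and were tested, and 6 of the 9 RNAs had at most 6.94% of these rows above them. Mir124a-1hg ranked 60 to 88 in single libraries, Malat1 86 to 124, Meg3 106 to 138 and Snhg11 277 to 316. 2610100L16Rik ranked 571 to 987 and Rian 865 to 1001. Miat, at 3038 to 3673, stood in the upper part, and Neat1 (7967 to 9045) and Mirg (9075 to 10095) stood below the median level of 12.6 FPKM. The host of miR-124a-1 thus lay among the most abundant transcripts of these libraries, and the host of miR-124a-2 was 4.28 to 7.30 times lower.

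**Figure D2:**
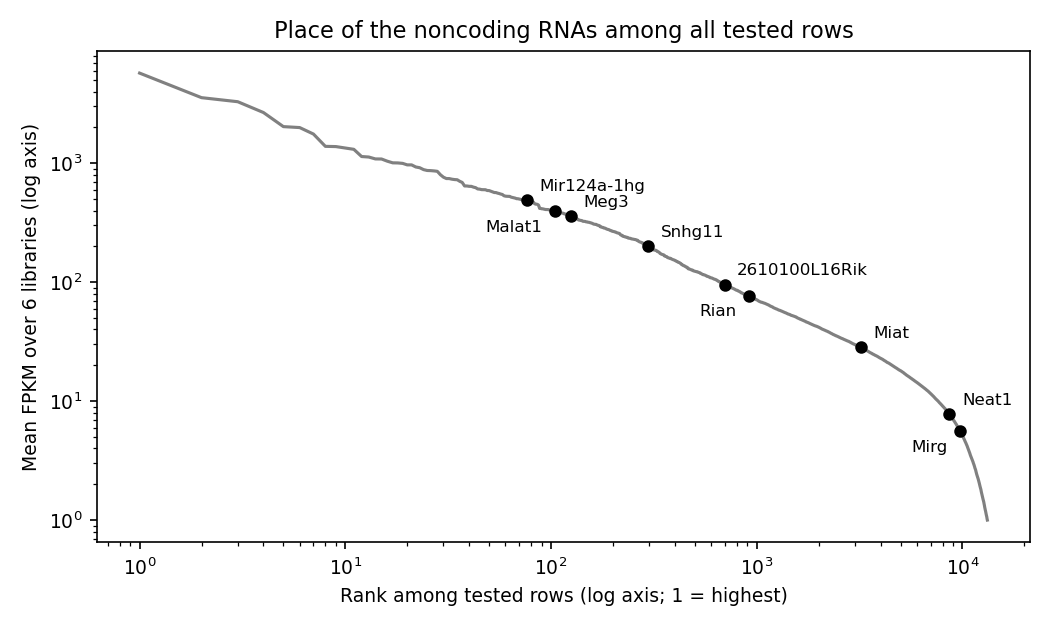
Mean FPKM over the 6 libraries against rank among the 13215 tested rows, both on log axes; the grey line is all rows and the points are the noncoding RNAs. Mir124a-1hg, Malat1 and Meg3 rank 76, 104 and 125 by their means, and Neat1 and Mirg lie on the falling end of the curve.

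None of the 9 RNAs differed detectably between the libraries labelled DKO and the libraries labelled control. Of 13215 rows, 3 passed limma's test after Benjamini-Hochberg (BH) adjustment (0.0227%), and 0 of the 9 were among them, a share near that background. At an unadjusted limma p under 0.05 there were also 0 of 9, where 7.88% of all rows were past it. The values of the groups overlapped for all 9, against 13.9% of all rows whose groups did not overlap. Log2 fold changes, on log2(FPKM + 1), ran from -0.20 to 0.05, with 3 above 0 and 6 below and a median of -0.027, beside a median of -0.0016 over all tested rows. The median size of the change without its sign was 0.048 for the 9 and 0.069 for all rows. The 2-sided exact permutation test gave p of 0.5 to 1 for each of the 9. In bulk tissue, fewer cells of a type and less RNA per cell cannot be told apart, and this holds for each level below.

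**Figure D3:**
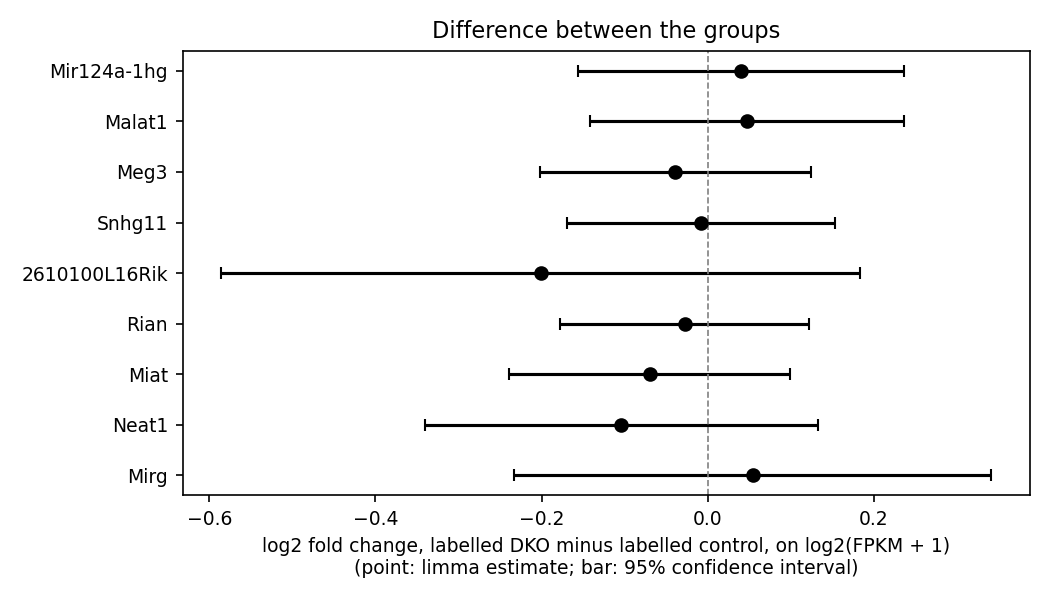
Log2 fold change of each noncoding RNA, libraries labelled DKO minus libraries labelled control, with its 95% confidence interval from limma. Every interval includes 0, and that of 2610100L16Rik is the widest, from -0.59 to 0.18.

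Mir124a-1hg (GRCm38 chr14:64587331-64593961, plus strand) carries miR-124a-1 and miR-3078. It stood at 510.2, 464 and 502 FPKM in DKO replicates 1 to 3, and at 420.1, 528 and 492 FPKM in control replicates 1 to 3. Both the lowest and the highest library were controls, and the libraries labelled DKO lay between them. The log2 fold change was 0.04 with SE 0.08, and the limma interval allows a fold of 0.898 to 1.18 (limma, BH adjusted p = 0.942). A 2-sided exact permutation test, which has 20 ways to assign the libraries and can give no p below 0.1, gave p = 0.8.

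2610100L16Rik (chr3:17789921-17808970, plus strand) carries miR-124a-2. It stood at 69.9, 98.0 and 97.8 FPKM in DKO replicates 1 to 3, and at 80.3, 110.5 and 115 FPKM in control replicates 1 to 3. DKO replicate 1 and control replicate 1 were the low libraries, and the other 4 lay between 97.8 and 115 FPKM with the controls on top. Its log2 fold change of -0.20 had SE 0.17 and an interval that allows a fold of 0.666 to 1.14 (limma, BH adjusted p = 0.804), and the exact permutation test gave p = 0.5. Without DKO replicate 1 the log2 fold change was -0.041, and without control replicate 1 it was -0.36, with a limma unadjusted p of 0.042 (limma, BH adjusted p = 0.640). This RNA also varied most: its SD over the 6 libraries was 0.27 on the log2 scale, larger than that of 98.3% of the 634 rows within 0.5 of its log2 level, whose median SD was 0.071.

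The ratio of the 2 hosts within a library was 7.30, 4.74 and 5.13 in DKO replicates 1 to 3 and 5.23, 4.78 and 4.28 in control replicates 1 to 3 (2-sided exact permutation test, p = 0.5). The high value belonged to DKO replicate 1, where 2610100L16Rik was low and Mir124a-1hg was not. The precursor rows Mir124a-1, Mir124a-2, Mir124a-3 and Mir3078 were listed at 0 in all 6 libraries. A library made from mRNA catches such short RNAs poorly, so these rows do not test the genotype. In the main fit, neither host transcript was detectably lower in the libraries labelled DKO. With replicate number as a block, 2610100L16Rik had a limma unadjusted p of 0.00208 (limma, BH adjusted p = 0.304). The deleted part of each host gene is not stated, so the host rows do not test the genotype either. Directions here are those of the labels.

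Meg3 (chr12:109541001-109571726), Rian (chr12:109603940-109661716) and Mirg (chr12:109729764-109749460) follow each other on the plus strand, with 32.2 kb between Meg3 and Rian and 68.0 kb between Rian and Mirg. Their levels were lower with each step along the row. Meg3 stood at 326, 358 and 378 FPKM in DKO replicates 1 to 3, and at 338, 386 and 367 FPKM in control replicates 1 to 3. In both groups replicate 1 was the lowest, and the groups overlapped (log2 fold change -0.04, SE 0.07; limma, BH adjusted p = 0.932).

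Rian stood at 69.3, 78.5 and 80.2 FPKM in DKO replicates 1 to 3, and at 73.9, 77.5 and 80.7 FPKM in control replicates 1 to 3. It had the smallest relative spread of the 9, with a coefficient of variation of 5.68% over the 6 libraries (log2 fold change -0.03, SE 0.06; limma, BH adjusted p = 0.951). Meg3 was 4.56 to 4.72 times Rian in the libraries labelled DKO and 4.55 to 4.99 times in the libraries labelled control (2-sided exact permutation test, p = 0.9). The lowest library of each group was replicate 1 for both RNAs.

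Mirg stood at 6.90, 5.38 and 4.82 FPKM in DKO replicates 1 to 3, and at 4.94, 5.56 and 5.73 FPKM in control replicates 1 to 3. Here DKO replicate 1, low for Meg3 and Rian, was the highest library, and DKO replicate 3 was the lowest. Rian was 10.03 times Mirg in DKO replicate 1 and 13.9 to 16.6 times in the other 5 libraries. The log2 fold change of Mirg was 0.05 with SE 0.12 (limma, BH adjusted p = 0.949), and without DKO replicate 1 it was -0.07.

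The protein-coding genes of the domain, which are made from the paternal chromosome, were near the floor in the same libraries. Rtl1, a retrotransposon-like gene that lies antisense to part of the microRNA row, averaged 0.260 FPKM in the libraries labelled DKO and 0.328 FPKM in the libraries labelled control. Dlk1, a Notch-like membrane protein, averaged 0.0276 and Dio3, a thyroid hormone deiodinase, 0.315 FPKM in the libraries labelled DKO, against 0.0642 and 0.524 FPKM in the libraries labelled control. None of these 3 reached the mean of 1 FPKM needed for testing. Of 60 microRNA rows between Dlk1 and Dio3, 59 were listed at 0 in all 6 libraries. The exception was Mir1188 within Rian, listed at 177.9 FPKM in control replicate 2 and at 0 in the other 5. That value comes from 1 library and from the row of a short RNA. FPKM is per length, so it is not to be read beside the level of Rian.

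**Figure D4:**
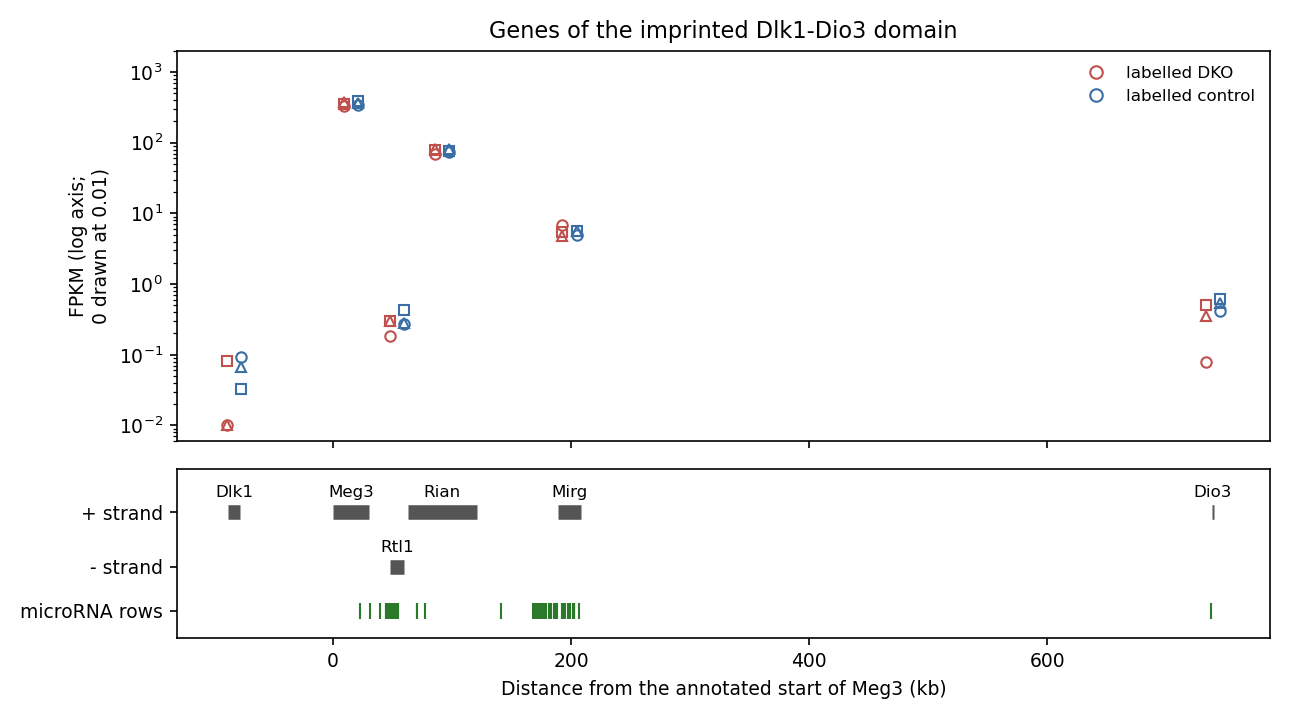
FPKM in each library (upper panel, log axis, values of 0 drawn at 0.01) for 6 genes of the Dlk1-Dio3 domain, placed by distance from the annotated start of Meg3 in kb; the lower panel gives strands and microRNA rows. Meg3, Rian and Mirg step down along the plus strand, and Dlk1, Rtl1 and Dio3 lie under 1 FPKM in all libraries.

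Malat1 and Neat1 are neighbours, 22.0 kb apart on the minus strand of chromosome 19. Malat1 (chr19:5795690-5802672) stood at 390.1, 429 and 381 FPKM in DKO replicates 1 to 3, and at 352, 433 and 379 FPKM in control replicates 1 to 3. Replicate 2 was the highest in both groups and the groups overlapped (log2 fold change 0.05, SE 0.08; limma, BH adjusted p = 0.929).

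Neat1 (chr19:5824708-5845478) stood at 7.16, 7.29 and 7.70 FPKM in DKO replicates 1 to 3, and at 6.85, 9.14 and 8.19 FPKM in control replicates 1 to 3. The libraries labelled DKO lay close together between the lowest and the 2 higher controls (log2 fold change -0.10, SE 0.10; limma, BH adjusted p = 0.850). Malat1 was 49.5 to 58.8 times Neat1 in the libraries labelled DKO and 46.3 to 51.3 times in the libraries labelled control, on FPKM (2-sided exact permutation test, p = 0.2). The files do not separate the short from the long form of Neat1.

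Miat (chr5:112213228-112229395, minus strand) stood at 24.6, 28.6 and 29.7 FPKM in DKO replicates 1 to 3, and at 28.3, 29.0 and 29.6 FPKM in control replicates 1 to 3. All libraries but DKO replicate 1 lay between 28.3 and 29.7 FPKM. The log2 fold change was -0.07 with SE 0.07 (limma, BH adjusted p = 0.863), and 0.0092 without DKO replicate 1.

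Snhg11 (chr2:158375638-158386145, plus strand), annotated as protein coding in GENCODE M21 and as a long noncoding RNA in RefSeq, stood at 179.7, 210.1 and 209.8 FPKM in DKO replicates 1 to 3, and at 190.2, 207 and 204 FPKM in control replicates 1 to 3. As for Meg3, Rian, 2610100L16Rik, Miat and Neat1, replicate 1 was the lowest of each group. The group means were the closest of the 9 relative to their level, at 199.9 ± 17.4 FPKM in the libraries labelled DKO and 200.6 ± 9.18 FPKM in the libraries labelled control (SD, n = 3 each). The log2 fold change was -0.0079 (limma, BH adjusted p = 0.987).

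Single libraries stood apart in a pattern that crossed the groups. DKO replicate 1 was the lowest of the 6 libraries for 5 of the 9 RNAs (2610100L16Rik, Meg3, Rian, Miat and Snhg11), and control replicate 1 for 3 (Mir124a-1hg, Malat1 and Neat1). Over all tested rows, DKO replicate 1 was the lowest library for 20.8% of rows and control replicate 1 for 16.9%. Control replicate 2 was the highest library for 4 of the 9 and for 14.8% of all rows, and none of the 9 lay below its own mean there. Median-of-ratios factors of the deposited FPKM ran from 1.0002 to 1.0027. How the authors scaled these values is not given, so the factors do not show that the libraries were level before scaling. Relative depth was 1 in DKO replicate 1, 0.956 in control replicate 1 and 1.05 in control replicate 2. The part of scaling and depth in the pattern was not tested. Each of the 9 had a larger SD over the 6 libraries than the median row within 0.5 of its log2 level, with 60.1% (Neat1) to 98.3% (2610100L16Rik) of those rows below it.

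**Figure D5:**
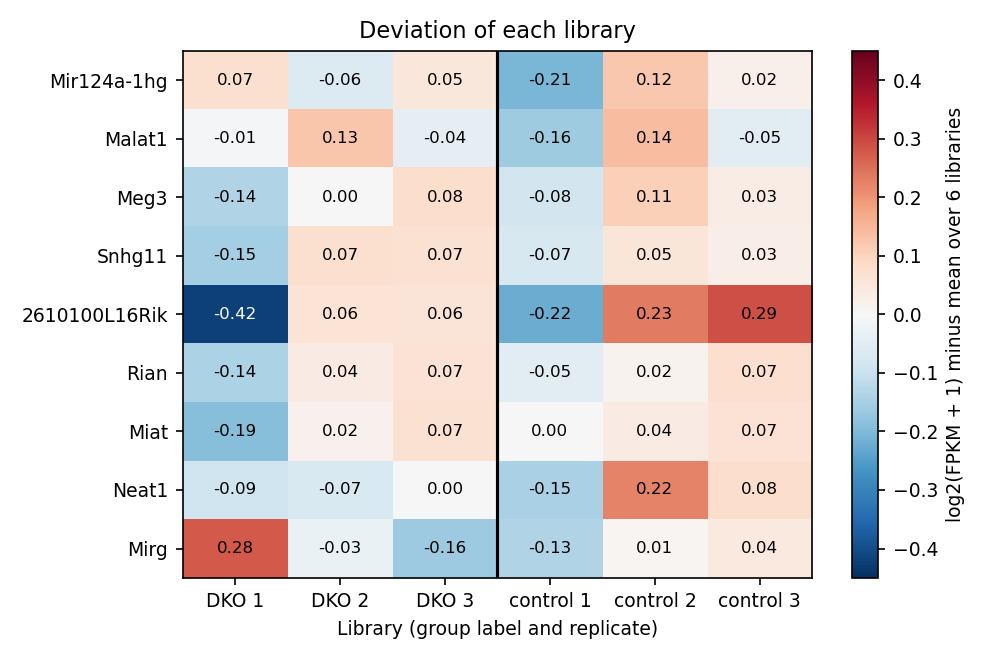
Deviation of log2(FPKM + 1) from the mean over the 6 libraries for each noncoding RNA, with libraries labelled DKO left of the line and libraries labelled control right of it. DKO replicate 1 and control replicate 1 are mostly below the mean. The exceptions are Mirg and Mir124a-1hg in DKO replicate 1 and, at 0.0026, Miat in control replicate 1. Control replicate 2 is above the mean throughout.

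Other hosts and partners of these RNAs were counted from 7 gene lists, without the 9 themselves. None of their tested rows passed limma's test after adjustment. At an unadjusted limma p under 0.05, past which lay 7.88% of all tested rows, there were 2 of 25 tested host genes of small nucleolar RNAs, 1 of 9 noncoding and 3 of 33 protein-coding hosts of microRNAs, and 3 of 20 other long noncoding RNAs. There were also 0 of 17 paraspeckle proteins, 1 of 20 speckle and splicing proteins, and 2 of 5 genes of the Dlk1-Dio3 domain and its flanks. Of 25 other host genes of small nucleolar RNAs, 9 were above 0 and 16 below, with a median log2 fold change of -0.025. The smallest p was that of Snhg20, at 54.6 ± 3.48 FPKM in the libraries labelled DKO and 71.4 ± 11.2 FPKM in the libraries labelled control (SD, n = 3 each; limma, BH adjusted p = 0.460). Snhg14, the long host of the Prader-Willi region, had -0.18 (limma, BH adjusted p = 0.601).

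Of 15 other noncoding microRNA hosts with a row, 9 were tested, 4 above 0 and 5 below. Those of highest level, Mir100hg (listed as 3110039I08Rik) at 9.20 to 11.7 FPKM and Mir22hg at 6.77 to 11.5 FPKM, lay far below the miR-124 hosts in all 6 libraries. Mir22hg had the smallest p, at 8.02 ± 1.19 FPKM in the libraries labelled DKO and 10.1 ± 1.35 FPKM in the libraries labelled control (SD, n = 3 each; limma, BH adjusted p = 0.608). Of 33 tested protein-coding microRNA hosts, 14 were above 0 and 19 below. The smallest p belonged to Srebf1, a regulator of lipid synthesis whose human gene hosts a microRNA, and to Trpm1, the channel of ON bipolar cells and host of miR-211. Trpm1 averaged 112 ± 4.25 FPKM in the libraries labelled DKO and 124 ± 3.14 FPKM in the libraries labelled control (SD, n = 3 each; limma, BH adjusted p = 0.518).

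Of 20 other tested long noncoding RNAs, 14 were above 0 and 6 below, with a median log2 fold change of 0.055. The highest were 1700020I14Rik at 82.7 to 96.5 FPKM, Peg13, an imprinted RNA of the brain, at 69.0 to 76.1 FPKM, and Six3os1, transcribed beside the eye field gene Six3, at 49.6 to 61.2 FPKM over the 6 libraries. Mir124a-1hg, Malat1, Meg3 and Snhg11 exceeded them all. Pantr1 had the smallest p, at 1.64 ± 0.705 FPKM in the libraries labelled DKO and 2.90 ± 0.363 FPKM in the libraries labelled control (SD, n = 3 each; limma, BH adjusted p = 0.514).

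The proteins that work with the nuclear RNAs were also not called. Of 17 paraspeckle proteins, 11 were above 0 and 6 below (median 0.017). Smarca4, a chromatin remodeller, had the smallest p with a log2 fold change of 0.09, and Sfpq, an RNA-binding protein essential to paraspeckles, had -0.07 (limma, BH adjusted p = 0.696 and 0.832). Of 20 speckle and splicing proteins, 7 were above 0 and 13 below (median -0.036). Srsf2, a core speckle protein, had the smallest p, at 89.4 ± 2.06 FPKM in the libraries labelled DKO and 105.9 ± 4.35 FPKM in the libraries labelled control (SD, n = 3 each; limma, BH adjusted p = 0.269). Of 5 tested genes in and beside the Dlk1-Dio3 domain, 3 were above 0 and 2 below. Begain, a postsynaptic protein at its edge, averaged 35.6 ± 2.03 FPKM in the libraries labelled DKO and 45.3 ± 2.06 FPKM in the libraries labelled control (SD, n = 3 each; limma, BH adjusted p = 0.196).

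Genes within 200 kb of the 9 were not called either. They numbered 44 rows, of which 29 were tested, 11 above 0 and 18 below, with 0 past limma's adjusted threshold, against 0.0227% of all tested rows, and 3 of the 29 at an unadjusted p under 0.05, against 7.88% of all tested rows. Mir124a-1hg has Kif13b, a kinesin motor, 53.3 kb away, with a log2 fold change of 0.12, and Msra, a methionine sulfoxide reductase, with -0.05 (limma, BH adjusted p = 0.801 and 0.931). No tested gene lay within that distance of 2610100L16Rik. Crybb1, a lens crystallin gene 26.4 kb from Miat, had the largest difference, at 4.71 ± 1.96 FPKM in the libraries labelled DKO and 12.5 ± 9.14 FPKM in the libraries labelled control (SD, n = 3 each; limma, BH adjusted p = 0.595). The SD among controls was larger than the difference of the means.

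Rows whose course over the 6 libraries was most like that of each RNA were found by the root-mean-square difference of centred log2 values, over 10018 rows averaging 5 FPKM or more. For Rian this was Mvb12b, with a difference of 0.0053, and for Meg3 it was Eml3, with 0.015. It was Clu for Mir124a-1hg (0.026), Gfod2 for Malat1 (0.016), Papd5 for Miat (0.013), Gm10052 for Snhg11 (0.014), Ptges2 for Neat1 (0.035), 2510002D24Rik for Mirg (0.043) and Tnfsfm13 for 2610100L16Rik (0.041). The median row differed by 0.111 from Rian and by 0.260 from 2610100L16Rik. With 6 libraries and so many rows some row will lie close to any course, so these names are a description.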

How the data were processed

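RNA from mouse tissue labelled as brain was extracted with TRIzol and made into stranded mRNA libraries with a TruSeq kit, per the labels' protocols. Each file the authors deposited pairs symbols with FPKM, per the file headers. Per the submitters' processing notes, TopHat2 2.1.1, Bowtie2, Cuffdiff 2.2.1 and mm10 were used. Options, annotation, strand setting and scaling are not given in the sources.

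The 13215 of 24346 rows averaging 1 FPKM or more were tested after taking log2(FPKM + 1), using limma 3.58.1 (R 4.3.3; eBayes with a trend, checked on simulated data), libraries labelled DKO minus control, with Benjamini-Hochberg adjustment over all rows and a threshold of 0.05. Changes on this scale are understated for low genes. FPKM carry no read totals, so precision comes from the spread of 3 libraries a group. Single values and ratios were compared by 2-sided exact permutation in SciPy 1.17.1. Symbols were matched to GENCODE M21 and RefSeq (GRCm38).

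The 9 members and the lists were chosen with earlier results of these data known. Named besides are list members past the threshold or of smallest p, the highest of a list, neighbours and the row most like each member; Sfpq was singled out after its value was seen. Also run were a pseudocount of 0.1 or 0.5, no filter or 5 FPKM, median-of-ratios and quantile scaling, a replicate block, eBayes without a trend or robust, no short RNA rows, and each library left out.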

Additional observations from a re-analysis of the deposited data

How the results depend on the processing

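All 9 RNAs missed the threshold in each of 16 alternatives (limma, BH adjusted p of 0.304 or more). 2610100L16Rik stayed below 0 in all 16 (-0.363 to -0.0410) and Neat1 likewise (-0.203 to -0.0188). The other 7 changed sign in at least 1 alternative, as is possible for values so near 0, and the cause was not tested. Leaving out single libraries gave log2 fold changes of -0.0526 to 0.112 for Mir124a-1hg, -0.0202 to 0.130 for Malat1, -0.0904 to 0.0196 for Meg3, -0.0670 to 0.0371 for Rian, -0.0708 to 0.150 for Mirg, -0.122 to 0.0092 for Miat and -0.0457 to 0.0664 for Snhg11. Snhg11 was also above 0 with quantile normalization (0.0156) and without short RNA rows (0.0115). The count of rows past the threshold was 3, with 1 in eBayes without a trend and 1 to 4 when single libraries were left out (1 without control replicate 2).

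Replicate number as a block left 2 rows past the threshold and none of the 9. Rows with a limma unadjusted p under 0.05 numbered 1271 with the block and 1041 in the main fit. Under this block 2610100L16Rik had a limma unadjusted p of 0.00208 (0.304 after adjustment). Pearson's r between the deviations of libraries with the same number was 0.072, 0.0063 and 0.10, and with other numbers -0.12 to 0.036, so the numbers are not shown to pair the libraries. Depth in reads is unknown, which limits what can be said of rows near 0 FPKM.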
